A study of Mus musculus with 2 samples.

Results

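Polycomb repressors are 2 kinds of chromatin complex, and the transcripts of 10 of their subunits were read in mature thymocytes of *MHC-IIo:CD8ab-Tg* mice. The subunits were *Ezh1*, *Ezh2*, *Eed*, *Suz12*, and *Jarid2* of Polycomb repressive complex PRC2, and *Bmi1*, *Ring1*, *Rnf2*, *Cbx7*, and *Pcgf5* of PRC1. They were taken by gene symbol, all 10 were found in both libraries, and they were 10 of the 48321 genes listed.

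The cells were CD4- thymocytes sorted as CD24lo TCRβhi from C57Bl/6 mice that carried *I-Ab-/-*, *Rosa26 8a/8b* and a *Cd4-Cre* transgene on a *Cd8 Δab/Δab* background, in 2 libraries of poly(A) RNA. These mice lack MHC class II, have both endogenous *Cd8* genes disrupted, and express CD8α and CD8β cDNAs from *Rosa26* once Cre, driven by *Cd4* regulatory sequence, has removed a stop cassette. The sample titles call the cells CD4-CD8-, whereas the cell type field calls them CD8+, and the age of the mice was not given in the sources used here. Both libraries belong to this single condition and no control genotype was analysed here, so the levels and their order were described and no effect of the genotype was tested. The sources used here do not say which mice, or how many, each library came from. *Xist*, with 34 and 25266 counts, and *Uty*, with 467 and 10 counts, 2 sex-linked genes chosen after their values were seen, set the libraries apart, so they are not repeats of the same RNA, and how much of the spread between them is technical was not tested.

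PRC2 writes methylation on lysine 27 of histone H3 (H3K27), with *Ezh1* or *Ezh2* as the catalytic subunit and *Eed* and *Suz12* as the partners that either enzyme needs. PRC1 ubiquitinates histone H2A through *Ring1* or *Rnf2*, paired with a PCGF protein such as *Bmi1* or *Pcgf5*, and the CBX proteins of its canonical form, *Cbx7* among them, bind the mark that PRC2 makes. *Ezh2* is best known from dividing cells and *Ezh1* from resting ones, and in T cells *Ezh2* is known to restrain effector genes such as *Eomes* and *Tbx21*.

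A comparison of *Ezh1* with *Ezh2*, or of *Ring1* with *Rnf2*, by reads of 50 bases requires that the paralogs be told apart. The stretches around the longest identical run of each pair of coding sequences, taken from the GENCODE M21 transcripts on GRCm38, are shown for that reason, each in coding direction with that run in capitals. Over the aligned coding bases *Ezh1* and *Ezh2* were 67.3% identical, and their longest identical run was 17 bases.
Ezh1: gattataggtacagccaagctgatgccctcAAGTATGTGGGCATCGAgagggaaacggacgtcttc
Ezh2: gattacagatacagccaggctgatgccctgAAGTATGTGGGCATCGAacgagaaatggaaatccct
Both stretches are the 3′ ends of the coding sequences. That of *Ezh1* lies on the minus strand within chr11:101192942-101193226, in exons 20 and 21 of 21, and that of *Ezh2* on the minus strand within chr6:47530544-47531748, in exons 19 and 20 of 20. An intron within each span was left out of the letters. *Ring1* and *Rnf2* were 66.2% identical, with a longest identical run of 14 bases.
Ring1: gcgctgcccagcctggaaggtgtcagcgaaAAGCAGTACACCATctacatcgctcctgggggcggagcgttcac
Rnf2: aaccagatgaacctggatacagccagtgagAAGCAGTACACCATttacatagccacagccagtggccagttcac
These stretches lie on the minus strand at chr17:34021684-34021757, in exon 6 of 7 of *Ring1*, and at chr1:151471639-151471712, in exon 7 of 8 of *Rnf2*. Any window of 50 coding bases, set without gaps against any such window of the paralog, differed from it at 4 or more positions for *Ezh1* and *Ezh2*, and at 9 or more for *Ring1* and *Rnf2*. *Bmi1* and *Pcgf5*, which are both PCGF genes, were 58.9% identical and differed at 12 or more positions by the same measure.

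All 10 subunits are annotated as protein-coding genes of GRCm38. *Ezh1* spans chr11:101191115-101226463 and *Ezh2* chr6:47530139-47595341, both on the minus strand, and their partners are *Eed* (chr7:89954654-89980983, minus), *Suz12* (chr11:79993106-80034123, plus), and *Jarid2* (chr13:44729474-44921643, plus). The PRC1 genes are *Ring1* (chr17:34020792-34024680, minus), *Rnf2* (chr1:151458004-151500955, minus), *Bmi1* (chr2:18677018-18686629, plus), *Cbx7* (chr15:79915807-79971119, minus), and *Pcgf5* (chr19:36348309-36460970, plus). Of the windows of 50 bases in their transcripts, the share also found in a transcript of another gene was 0.093% for *Ezh1*, 1.11% for *Ezh2*, and 5.82% for *Eed*, and it was highest for *Bmi1*, at 16.7%, shared with the gene models *Gm5946* and *AC114652.1*. The strand setting of the counting was not named and the library kit does not mark strand, so reads in an exon that overlaps a gene on the opposite strand cannot be told apart. Such an overlap covered 174 bases of *Ezh2*, 261 of *Eed*, 178 of *Suz12*, 158 of *Rnf2*, 100 of *Cbx7*, and 60 of *Pcgf5*, and none of *Ezh1*, *Jarid2*, *Bmi1*, or *Ring1*.

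The counts assigned to genes summed to 16732644 in replicate 1 and 16245849 in replicate 2, and levels are given as counts-per-million (CPM) of these totals. A count of 3, taken as the smallest that can be read as a signal, equals 0.179 and 0.185 CPM. All 11 T-cell markers tested had at least 1 CPM in both libraries, with sums of 4702 and 4481 CPM. These sums include *Cd8a* (158 and 171 CPM) and *Cd8b1* (775 and 786 CPM), whose cDNAs the mice express from *Rosa26*, so their reads are not independent of the transgenes. Of the markers of other cells, 3 of 6 for double-positive thymocytes reached 1 CPM in both libraries (sums of 18.9 and 18.5 CPM), 1 of 5 for B cells (13.5 and 15.2 CPM), 2 of 6 for myeloid and dendritic cells (12.1 and 13.7 CPM), and 0 of 6 each for erythroid cells and thymic stroma (at most 2.22 CPM). In such bulk samples, fewer cells that express a gene and less RNA per cell cannot be told apart.

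Every one of the 10 subunits was well above this floor, between 362 and 1909 counts per library. *Suz12*, which holds the PRC2 core together, had 107 CPM in replicate 1 and reached 118 CPM in replicate 2, a mean of 112 ± 7.15 CPM (SD, n = 2, as for all means below). *Jarid2*, an accessory protein that helps PRC2 to bind chromatin, had 105 and 114 CPM, a mean of 109 ± 6.39 CPM. *Eed*, whose product binds methylated H3K27 and stimulates the enzyme, had 78.9 and 78.5 CPM, a mean of 78.7 ± 0.287 CPM.

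The catalytic pair was read in the same unit. *Ezh1* had 80.02 CPM in replicate 1 (Wilson 95% interval 75.9 to 84.4) and 84.5 CPM in replicate 2 (80.1 to 89.0), a mean of 82.2 ± 3.13 CPM. *Ezh2* had 44.8 CPM (41.7 to 48.1) and 51.5 CPM (48.1 to 55.1), a mean of 48.2 ± 4.74 CPM. Before any correction for length, both values of *Ezh1* were above both values of *Ezh2*. These intervals were computed within each library and cover counting error only. PCR copies of 1 molecule were not marked and could be counted more than once, so the intervals may be too narrow even for that error.

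Among the PRC1 subunits *Cbx7*, whose product binds methylated H3K27, had 70.8 and 76.6 CPM, a mean of 73.7 ± 4.11 CPM. *Rnf2*, which encodes the ubiquitin ligase RING1B, had 44.4 and 54.0 CPM, a mean of 49.2 ± 6.82 CPM. The other ligase gene, *Ring1*, had 21.9 and 27.6 CPM, a mean of 24.8 ± 4.03 CPM. *Bmi1*, the PCGF subunit of canonical PRC1, had 35.02 and 42.5 CPM, a mean of 38.8 ± 5.31 CPM. *Pcgf5*, a PCGF subunit of variant PRC1 without a CBX protein, had 21.6 and 22.3 CPM, a mean of 21.96 ± 0.458 CPM.

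**Figure D1:**
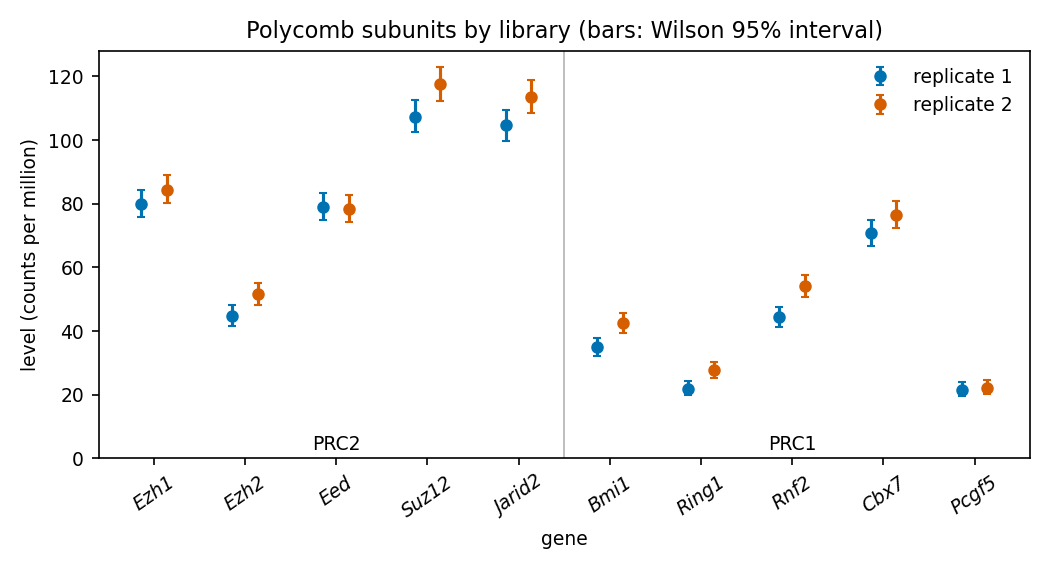
Level of each of the 10 subunits in CPM of the total on genes, with a point for each library and its Wilson 95% interval as a bar, PRC2 genes on the left and PRC1 genes on the right. The means run from 21.96 CPM for *Pcgf5* to 112 CPM for *Suz12*, without correction for length.

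A long transcript yields more reads than a short one at the same number of molecules, so CPM values of different genes give no order of their levels, and that order was drawn from values divided by length. Transcripts-per-million (TPM) were computed from the counts and the union of annotated exons of each gene. On this scale *Suz12*, at 70.0 and 78.4 TPM (mean 74.2 ± 5.91), and *Eed*, at 66.4 and 67.6 TPM (mean 67.0 ± 0.833), were highest. Then came *Rnf2* with a mean of 38.9 ± 6.01 TPM, *Cbx7* with 37.0 ± 2.66, *Jarid2* with 36.6 ± 2.74, *Ezh1* with 36.1 ± 1.95, and *Bmi1* with 31.9 ± 4.87. *Ring1* with 25.0 ± 4.46 TPM and *Ezh2* with 23.5 ± 2.69 TPM were lower, and *Pcgf5* was last, with 5.67 ± 0.210 TPM.

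Of the 9 neighbouring pairs in this order, 5 had overlapping ranges between the libraries, namely *Rnf2* with *Cbx7*, *Cbx7* with *Jarid2*, *Jarid2* with *Ezh1*, *Ezh1* with *Bmi1*, and *Ring1* with *Ezh2*. The other 4 did not overlap, and the highest subunit was 13.1-fold above the lowest in TPM. Among the 10376 protein-coding genes with at least 1 CPM in both libraries, whose median was 23.8 TPM, *Suz12* stood at the 82.2 percentile, *Eed* at 80.1, *Ezh1* at 63.5, *Ezh2* at 49.6, and *Pcgf5* at 17.9.

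The place of *Pcgf5* depended on the length used. Its exons in the annotation add up to 12629 bases, of which 768 are coding, and with the longest annotated coding sequence as the length its mean level was 38.8 TPM, above *Ezh2* and *Ring1*. With that length *Cbx7* was first, at 133 TPM. Here and below, all counts of a gene were divided by the coding length, including reads outside the coding sequence. A gene whose exons are mostly not coding is therefore raised by this length. With the longest annotated protein-coding transcript *Pcgf5* was still last, at 10.3 TPM, and *Eed* passed *Suz12*. The isoforms used in these cells cannot be read from counts per gene.

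**Figure D2:**
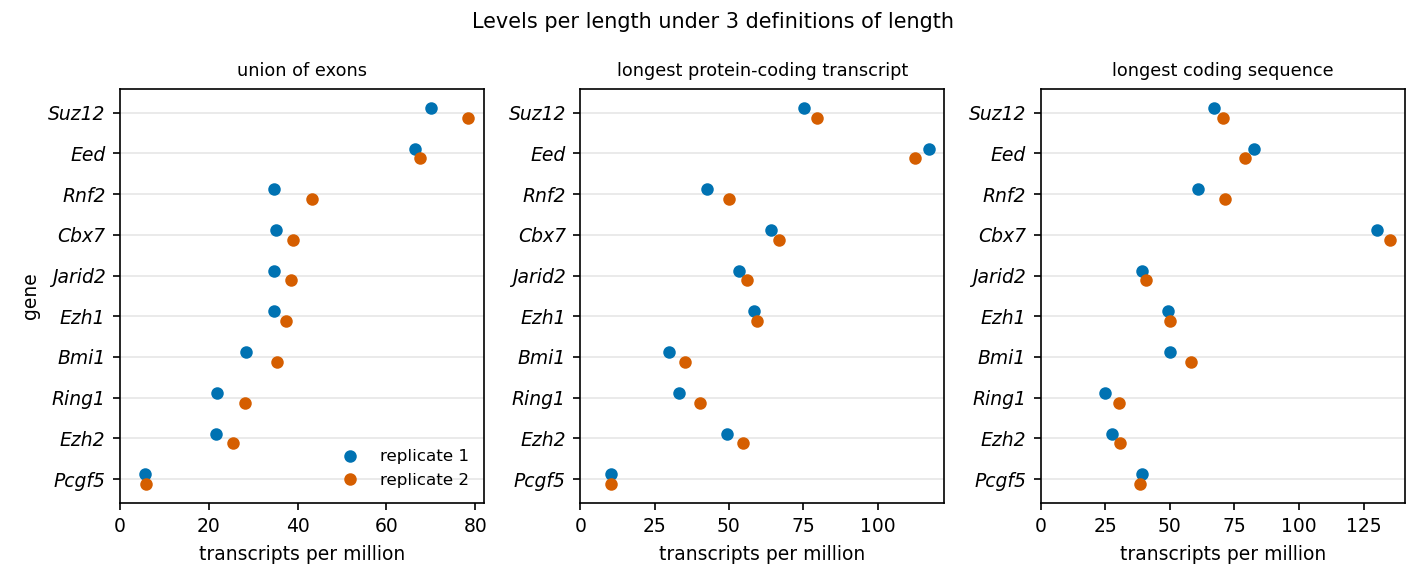
Level of each of the 10 subunits per length, in TPM, with a point for each library and a panel for each of 3 definitions of transcript length. *Pcgf5* lies at 5.67 TPM with all annotated exons and at 38.8 TPM with the coding sequence as the length. *Eed* and *Suz12* are among the highest 3 with each length.

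The ratio of *Ezh1* to *Ezh2* was formed within each library, where library size cancels out. In counts it was 1.79 in replicate 1 (95% interval 1.63 to 1.95) and 1.64 in replicate 2 (1.503 to 1.79), a mean of 1.71 ± 0.103. Per length over the union of exons, 7440 bases for *Ezh1* and 6678 for *Ezh2*, it was 1.60 (1.46 to 1.75) and 1.47 (1.35 to 1.61), a mean of 1.54 ± 0.0928. *Ezh1* was therefore higher than *Ezh2* in both libraries, by a mean of 12.5 TPM.

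The 2 coding sequences are of nearly the same length, 2250 and 2238 bases, and per coding length the ratio was 1.78 and 1.63, a mean of 1.70 ± 0.103. The longest annotated protein-coding transcripts differ more, with 4207 bases for *Ezh1* and 2787 for *Ezh2*, and with these the ratio was 1.18 (1.08 to 1.30) and 1.09 (0.996 to 1.18), a mean of 1.13 ± 0.0685. With the last length the interval of replicate 2 included 1, so a difference was not detectable there at this depth. An exact permutation test of the 2 levels of *Ezh1* against the 2 of *Ezh2* gave a two-sided p = 0.333 with every length, which is the smallest that 2 values against 2 can give and cannot pass 0.05.

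**Figure D3:**
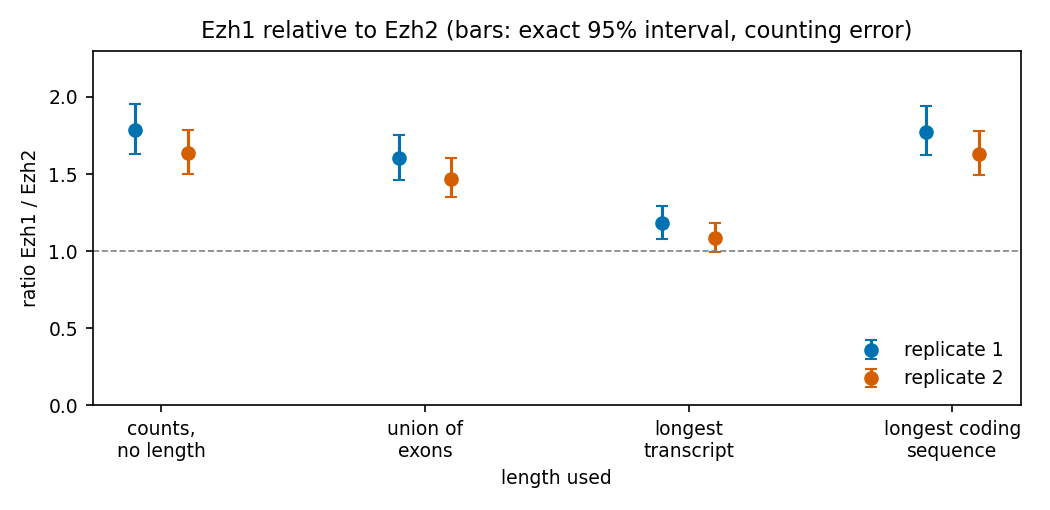
Ratio of *Ezh1* to *Ezh2* in each library, in counts and per length with 3 definitions of length; the bars are exact 95% intervals of counting error. The means are 1.71 in counts, 1.54 over all exons, 1.13 with the longest transcript, and 1.70 with the coding sequence, and 1 bar, that of replicate 2 with the longest transcript, crosses the line at 1.

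Since either enzyme occupies the same place in PRC2, the partners were set against the sum of both, 59.6 TPM over all exons. *Eed* was 1.13 ± 0.0739 times and *Suz12* 1.24 ± 0.00214 times this sum, whereas *Rbbp4* and *Rbbp7*, the histone chaperones that PRC2 shares with other complexes, summed to 4.05 ± 0.0525 times. *Jarid2* was 0.615 times the sum. With the longest transcript *Suz12* came to 0.698 times the sum and *Eed* to 1.04 times, and with the coding sequence to 0.871 and 1.03 times. Whether *Suz12* transcripts exceeded those of the 2 enzymes thus depended on the length, and transcript levels say nothing of the protein in the complex.

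The PRC1 ligase pair was unequal too. *Rnf2* over *Ring1* per exon length was 1.59 in replicate 1 and 1.54 in replicate 2, a mean of 1.56 ± 0.0384, and the mean was 1.26 with the longest transcript and 2.40 with the coding sequence. *Rnf2* was higher in both libraries with every length. As a share of the pair, *Rnf2* made up 61.0% ± 0.584 of the TPM over exons and *Ezh1* made up 60.6% ± 1.44 of its own pair.

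PRC1 complexes are told apart by their PCGF subunit. *Bmi1* held 37.7% ± 2.07 of the summed TPM of the 6 PCGF genes, followed by *Pcgf1* with 19.97%, *Pcgf6* with 16.1%, *Pcgf3* with 14.9%, *Pcgf5* with 6.76%, and *Pcgf2*, the close relative of *Bmi1*, with 4.56%. *Bmi1* was also first with the longest transcript, at 27.2%, but per coding length *Pcgf3* was first, at 32.9%, and *Bmi1* had 25.9%. *Pcgf2* had the smallest share with each of the 3 lengths. Of the windows of 50 bases, 16.7% for *Bmi1* and 15.3% for *Pcgf1* were also found in transcripts of other genes, against at most 0.847% for the other PCGF genes. The effect of this on the shares was not tested.

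Of the 3 PHC genes, which encode the polyhomeotic subunits of canonical PRC1, *Phc2* held 50.8%, *Phc3* 31.1%, and *Phc1* 18.1% over exons. The first place turned with the length here too, since *Phc2* had 55.7% with the longest transcript, but per coding length *Phc3* had 51.7% and *Phc2* 39.4%.

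**Figure D4:**
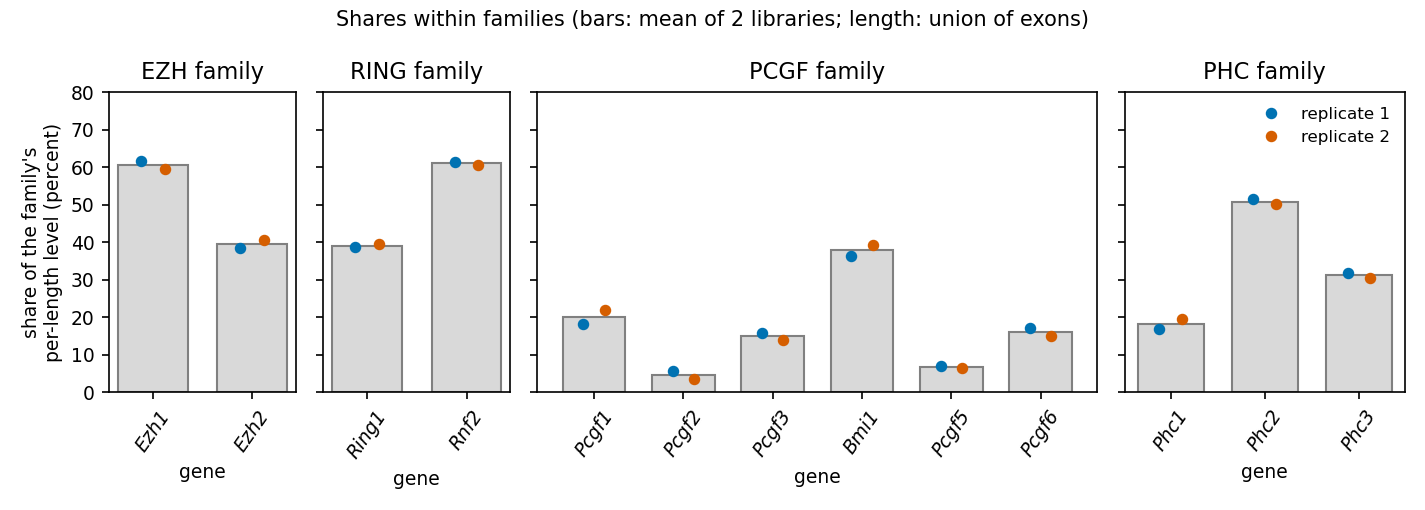
Share of each paralog in the summed TPM of its family, in percent over union exon lengths; the bars are the means of the 2 libraries and the points the libraries. *Ezh1* makes up 60.6% of its pair and *Rnf2* 61.0% of its own, and *Bmi1* has 37.7% of the PCGF genes and *Phc2* 50.8% of the PHC genes, though per coding length *Pcgf3* and *Phc3* come first in these families.

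The other genes of the Polycomb system were nearly all detected. All 8 further PRC2 genes analysed had at least 1 CPM in both libraries, from 7.11 CPM for *Phf19* to 179 CPM for *Rbbp4*. *Aebp2*, which with *Jarid2* marks the PRC2.2 form, had 162 and 163 CPM, and *Mtf2*, a Polycomb-like protein of the PRC2.1 form, had 71.1 and 71.2 CPM. Of the 21 other PRC1 genes, 20 reached 1 CPM in both libraries, and *Scml2*, with 5 and 6 counts, did not. Before any correction for length, the highest means of these 21 genes were those of *Mga*, *Bcor*, and *Phc3*, at 175, 163, and 147 CPM. These values are not typical of the list. Its median was the mean of *Phc1*, which had 23.1 and 28.9 CPM. The lowest means were those of *Scml2*, *Auts2*, and *Pcgf2*, at 0.334, 2.04, and 4.08 CPM.

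The enzymes that remove the Polycomb marks were also present. *Bap1*, the deubiquitinase of histone H2A in the PR-DUB complex, had 78.9 and 83.4 CPM, its partners *Asxl1* and *Asxl2* had means of 130 and 121 CPM, and *Asxl3* had no count in either library. *Kdm6b*, a demethylase of H3K27, had 139.5 and 158 CPM, a mean of 149 ± 13.1 CPM. The other demethylase, *Kdm6a*, had 70.7 CPM in replicate 1 but 115 CPM in replicate 2.

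The libraries were then compared with each other to learn how much the subunits varied within the condition. Genes with at least 10 counts over both libraries were tested by the exact binomial test, two-sided and with p adjusted by Benjamini-Hochberg over all 15949 genes tested, and 242 of them (1.52%) differed at least 2-fold at an adjusted p under 0.05. None of the 10 subunits was among these. At an unadjusted p under 0.05, 6 of the 10 differed at any fold, against 27.7% of all genes tested. Small differences pass the binomial test more readily at high counts, and these shares were not matched for counts. The subunits had 362 to 1909 counts per library. edgeR's exact test with an assumed biological coefficient of variation of 0.1 called 0 of the 10 and 60 (0.376%) of all genes at the same thresholds, and at an unadjusted p under 0.05 it gave 0 of the 10 and 5.17% of all genes. This test of reads compares 2 libraries and no conditions.

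At an adjusted p under 0.05 and any fold, 5 of the 10 subunits differed between the libraries by the exact binomial test, against 16.3% of all genes tested. These shares were not matched for counts either, so they do not show that the subunits varied more than other genes. The median absolute log2 ratio was 0.12 for the subunits, 0.17 over all genes tested, and 0.14 over the protein-coding genes tested. These medians were not matched for counts, so they do not show that the subunits varied less. *Ring1* was higher in replicate 2 by 0.33 on the log2 scale (adjusted p = 0.00969, exact binomial test), *Bmi1* by 0.28 (adjusted p = 0.00618), *Rnf2* by 0.28 (adjusted p = 0.00126), *Ezh2* by 0.20 (adjusted p = 0.0384), and *Suz12* by 0.13 (adjusted p = 0.0418). The other 5 had log2 ratios from -0.01 for *Eed* to 0.12 for *Jarid2*. In all, 9 of the 10 were higher in replicate 2, as were 65.4% of all genes tested, and the median log2 ratio was 0.12 beside 0.08 over all genes tested. With edgeR's TMM library sizes the median over all genes tested became -0.00, 7 of the 10 (*Ezh1*, *Eed*, and *Pcgf5* were not) and 49.5% of all genes were higher in replicate 2, and *Rnf2* was the only subunit with an adjusted p under 0.05 (0.0449 by the exact binomial test), against 10.6% of all genes.

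*Kdm6a* differed more than any of the subunits, by 0.70 on the log2 scale (adjusted p = 1.25e-37, exact binomial test), which is less than 2-fold and did not pass edgeR's exact test with the assumed variation (adjusted p = 0.141). It is X-linked and known to escape X inactivation. *Xist*, the RNA of the inactive X, was nearly confined to replicate 2, and *Uty*, the Y-linked paralog of *Kdm6a*, to replicate 1. The part of these differences in the level of *Kdm6a* was not tested. Of the other PRC1 genes *Cbx2* was higher in replicate 2 by 0.58 on the log2 scale (adjusted p = 0.000462, exact binomial test), also less than 2-fold. *Cbx2* did not pass edgeR's exact test with the assumed variation (adjusted p = 0.698). *Auts2*, with 23 and 44 counts, and *Pcgf2*, with 82 and 53 counts, did not pass the exact binomial test (adjusted p of 0.0573 and 0.0973).

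**Figure D5:**
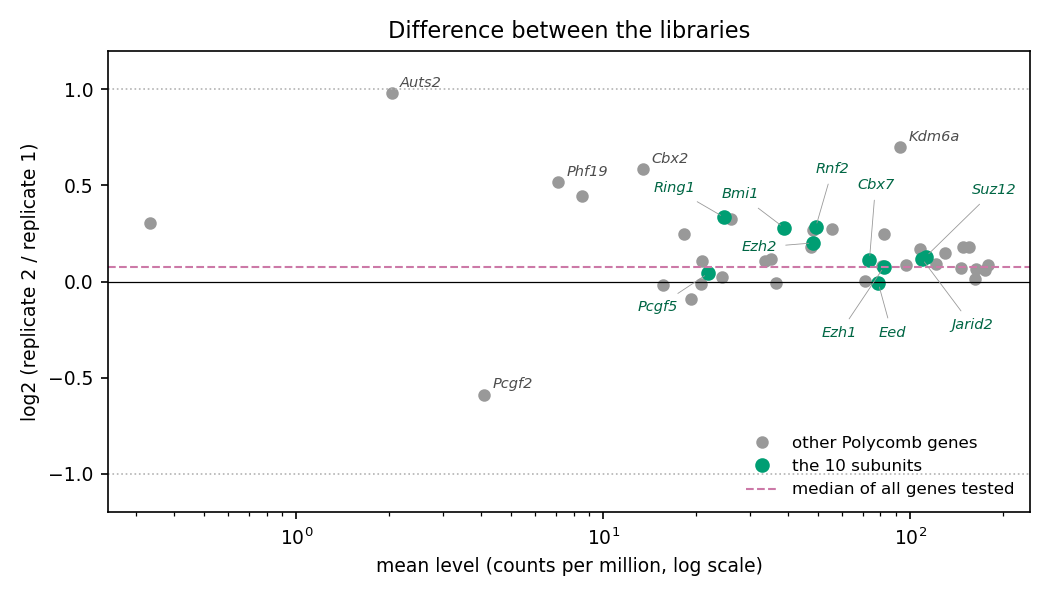
Log2 ratio of replicate 2 to replicate 1 against the mean level in CPM (log scale) for the 10 subunits (green) and the other Polycomb genes (grey); the dotted lines mark a 2-fold difference and the dashed line the median of all genes tested, 0.08. The 10 subunits lie between -0.01 and 0.33, and *Kdm6a* lies at 0.70.

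Genes that Polycomb complexes are known to hold silent outside their own lineages were read in the same libraries. Of 57 developmental regulators and cell cycle inhibitors, 46 (80.7%) had at most 3 counts in both libraries, and 29 (50.9%) had no count in either. The share at or under 3 counts was 63.0% over all genes listed and 40.5% over all protein-coding genes, and the share with no count was 50.2% and 30.04%, so that with no count the list stood near all genes listed. Among the 39 *Hox* genes of the list, 32 (82.1%) were at or under 3 counts in both libraries and 20 (51.3%) had none. *Hoxb4*, with 48 and 46 counts or 2.85 ± 0.0263 CPM, was the only gene of the list with at least 1 CPM in both libraries, and *Hoxa7* followed with 13 and 4 counts. No histone mark was measured, so these values describe transcripts alone.

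Effector genes linked to *Ezh2* in T cells were read next. *Eomes*, a T-box factor of memory-like CD8 T cells, had 196 CPM in replicate 1 against 355 CPM in replicate 2. Its log2 ratio was 0.86, less than 2-fold (adjusted p = 6.78e-166 by the exact binomial test and 0.0119 by edgeR's exact test). That of *Ezh2* was 0.20. The other T-box gene, *Tbx21*, had 27.6 and 30.3 CPM, *Gata3*, a factor of the helper lineage, 47.9 and 45.9 CPM, and *Zbtb16*, which encodes PLZF of innate-like T cells, 18.2 and 21.6 CPM. The cytokine genes were low, with 78 and 51 counts for *Ifng* and 11 and 7 counts for *Il4*. With 2 libraries no relation to the level of *Ezh2* can be tested.

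Because *Ezh2* is known to follow cell division, genes of the cell cycle were read beside it. All 18 had at least 1 CPM in both libraries, and they summed to 678 CPM in the first library and 775 CPM in the other. In counts without length, the top values were those of *Mcm2* at 132.5 CPM, *Pcna* at 119, *Mcm3* at 106, and *Mcm5* at 104. The bottom values were those of *Bub1* at 2.21 and *Ccnb1* at 1.61 CPM. The named top genes act in replication and the named bottom genes in mitosis, but CPM values of different genes give no order of their levels. No division of the list by role was therefore read from them. The median log2 ratio of the 18 genes between the libraries was 0.23 beside 0.08 over all genes tested. Of the 18, 17 were higher in replicate 2, against 65.4% of all genes, and 4 had an adjusted p under 0.05 at any fold by the exact binomial test, against 16.3% of all genes. The part of dividing cells in the level of *Ezh2* was not tested.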

How the data were processed

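Poly(A) RNA libraries of sorted mature thymocytes from 1 condition were sequenced as single-end reads of 50 bases. The authors mapped them with TopHat2 2.1.1 to mm10, and deposited raw counts of reads per gene from HTSeq 0.6.1. The gene annotation and strand setting are not given in the sources used here. The line of reads in no gene and those of ambiguous or multiply aligned reads were left out of totals, and 40.6% and 41.2% of uniquely aligned reads were assigned to genes.

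CPM and, with lengths from GENCODE M21 (GRCm38, 46394 of 48321 symbols matched, with 93.0% and 94.1% of the counts), TPM were computed from the deposited counts. Intervals of CPM are Wilson intervals, and those of ratios are exact binomial intervals for a ratio of 2 counts, both at 95%. Genes with at least 10 counts over both libraries were compared by an exact binomial test (scipy 1.17.1), with p adjusted by Benjamini-Hochberg (statsmodels 0.14.6), which was tested on simulated data. No model with replicates per group could be fitted, because there is 1 group. Alternatives were TMM (edgeR 4.0.16) and DESeq2 1.42.0 size factors, other minimum counts and CPM thresholds, other lengths, edgeR's exact test with an assumed coefficient of variation, and each library left out. Python 3.11.15 and R 4.3.3 were used.

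The 10 subunits and the gene lists were chosen with earlier results of these data known. Named were the subunits, the genes of the other Polycomb lists, and of every other list at most the 4 highest and 2 lowest by CPM. *Epop* was not analysed here, and some genes of the lists are not reported here.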

Additional observations from a re-analysis of the deposited data

How the results depend on the processing

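The mean ratio of *Ezh1* to *Ezh2* per length, 1.54, became 1.13 with the longest transcript and 1.70 with the coding sequence. With a library left out it was 1.47 or 1.60, which is only the value of the remaining library. Of the 9 neighbouring pairs in the order of levels, 4 were kept with the longest transcript, 3 with the coding sequence, and 8 or 9 within a single library. Genes that differed between the libraries numbered 242, against 55 with a minimum of 100 counts and 60 by edgeR's exact test. They were 150 higher in replicate 2 and 92 higher in replicate 1, but 98 and 100 with TMM factors and 104 and 98 with those of DESeq2. Subunits with an adjusted p under 0.05 at any fold by the exact binomial test numbered 5, against 1 with TMM, 1 with DESeq2 size factors, 3 with a minimum of 1 count, and 0 by edgeR's exact test. The cause of these changes was not tested. At a threshold of 5 CPM, 0 of the silenced developmental genes remained expressed in both libraries, against 1. No paired analysis was possible because there is only 1 group. Totals without 40 genes of mitochondrial RNA or rRNA repeats raised the CPM of all 10 subunits, that of *Ezh1* to 96.0 and that of *Ezh2* to 56.2.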
